A study of Bos taurus with 40 samples.

Results

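The pituitary gland and skeletal muscle are both electrically excitable, and their libraries were compared within the same animals. The samples were the 20 libraries of pituitary gland and longissimus dorsi muscle, out of 40 libraries in the whole series, chosen by their tissue label and paired through the ear tag in each sample title. They came from 10 Korean cattle, 5 cows and 5 bulls, all older than 22 months at slaughter, with 1 pituitary and 1 muscle library per animal. No treatment is named for any animal, and the rest of the series, 10 liver and 10 abdominal fat libraries of the same animals, served only as a reference. Whole pieces of tissue were extracted, so each library mixes all the cell types of its tissue, and a lower level from fewer cells of a type cannot be told apart from less RNA per cell. The question was which genes of electrical excitability, calcium handling and exocytosis differ between a gland that releases hormone and a muscle that contracts, set against the genes of contraction itself.

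In both tissues an action potential lets calcium rise in the cytoplasm. In endocrine cells of the anterior pituitary, calcium enters through voltage-gated channels of the plasma membrane or leaves the endoplasmic reticulum through inositol trisphosphate receptors, and it triggers the fusion of hormone granules by SNARE proteins. In skeletal muscle, acetylcholine opens a receptor channel at the nerve ending, a sodium spike spreads over the fibre, and the ryanodine receptor empties the sarcoplasmic reticulum, after which calcium binds troponin C and the filaments slide. Calcium is then pumped back by the SERCA pumps.

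The 4 gene lists held 496 symbols, of which 384 had a row in the deposited tables and 382 had at least 1 read in these libraries. They were 150 tested genes of excitability, 69 of calcium handling, 107 of exocytosis and 56 of contraction. Several central genes had no row and were not analysed here, among them SCN4A, CACNA1S, RYR2, RYR3, UNC13A, SYT7, TTN, NEB and MYH4. Levels are CPM, read counts per gene scaled to a common library size after TMM normalization, and levels of different genes were not compared because read counts also grow with transcript length. A gene was called when the Benjamini-Hochberg adjusted P-value of edgeR's quasi-likelihood test, with the animal as a block, was below 0.05. It was called past 4-fold when the same test against a fold of 4 was also below 0.05. Log2 fold changes (log2FC) are pituitary to muscle, with their standard error (SE).

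The libraries matched their tissue labels. All 7 hormone genes measured were higher in pituitary gland, where their summed level was 85877 to 307983 CPM against 19.8 to 191 CPM in muscle, and all 10 skeletal muscle markers were higher in muscle, at 32601 to 58399 CPM against 28.6 to 77.5 CPM. Of 10 markers of the posterior lobe, glia and nerve, 4 were higher in pituitary and 4 in muscle, and their sum was 114 to 221 CPM in pituitary against 38.3 to 82.2 CPM in muscle. Among them NEFL, a neurofilament, had 3 muscle reads (ratio 2407, 95% counting interval 823.5 to 11669), while AVP and OXT, hormones stored in the posterior lobe, did not exceed 1.30 CPM in any pituitary library. The part of nerve or glia in the results was not tested. Reads on genes ran from 5173092 to 19165864 per library, so that 3 reads, the floor used here, stood for 0.14 to 0.256 CPM in pituitary and 0.253 to 0.771 CPM in muscle. Markers of endothelium, fibroblasts, vascular smooth muscle and adipocytes were also mostly higher in muscle, with 17 of 18 genes called in that direction. The muscle library of cow 4 stood apart, with a TMM factor of 0.549 and 9.4% of its reads on FLNC. Counts without this animal are given for the exocytosis and excitability calls and for sex by tissue, while the list sums include it. Pituitary hormone genes had low read counts in muscle, and their source was not tested. Prolactin (PRL) in muscle was between 0.029% and 0.0932% of the pituitary level of the same animal in 9 animals and 0.00011% in bull 3. Actin alpha 1 (ACTA1) in pituitary was 0.00252% to 0.0343% of its muscle level.

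Of 12952 genes tested, 38.8% were called higher in pituitary gland and 30.2% higher in muscle, and 12.1% and 7.44% were past 4-fold in these directions. Against this background the lists went different ways. Exocytosis leaned to the pituitary, with 66 of 107 genes (61.7%) higher there and 21 (19.6%) higher in muscle, and so did excitability, with 79 of 150 (52.7%) and 36 (24%). Calcium handling was divided, with 27 of 69 (39.1%) higher in pituitary and 34 (49.3%) higher in muscle. Contraction was almost wholly muscular, with 55 of 56 genes (98.2%) higher in muscle and 54 past 4-fold. The median log2FC was 1.08 for exocytosis, 1.64 for excitability, -0.34 for calcium handling and -10.44 for contraction, beside 0.20 for all genes tested. With genes that had no read in one tissue set to their bound at the floor, these medians were 1.05, 1.11, -0.34 and -10.44 in the same order, and 0.08 for all genes. Without cow 4, exocytosis had 65 genes higher in pituitary and 20 higher in muscle, and excitability 78 and 35. Scaling by library sizes alone moved the median of all genes by 0.754 on the log2 scale, and the share of calls that were higher in pituitary from 56.2% to 79.1%, so directions of small size depend on the scaling.

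**Figure D1:**
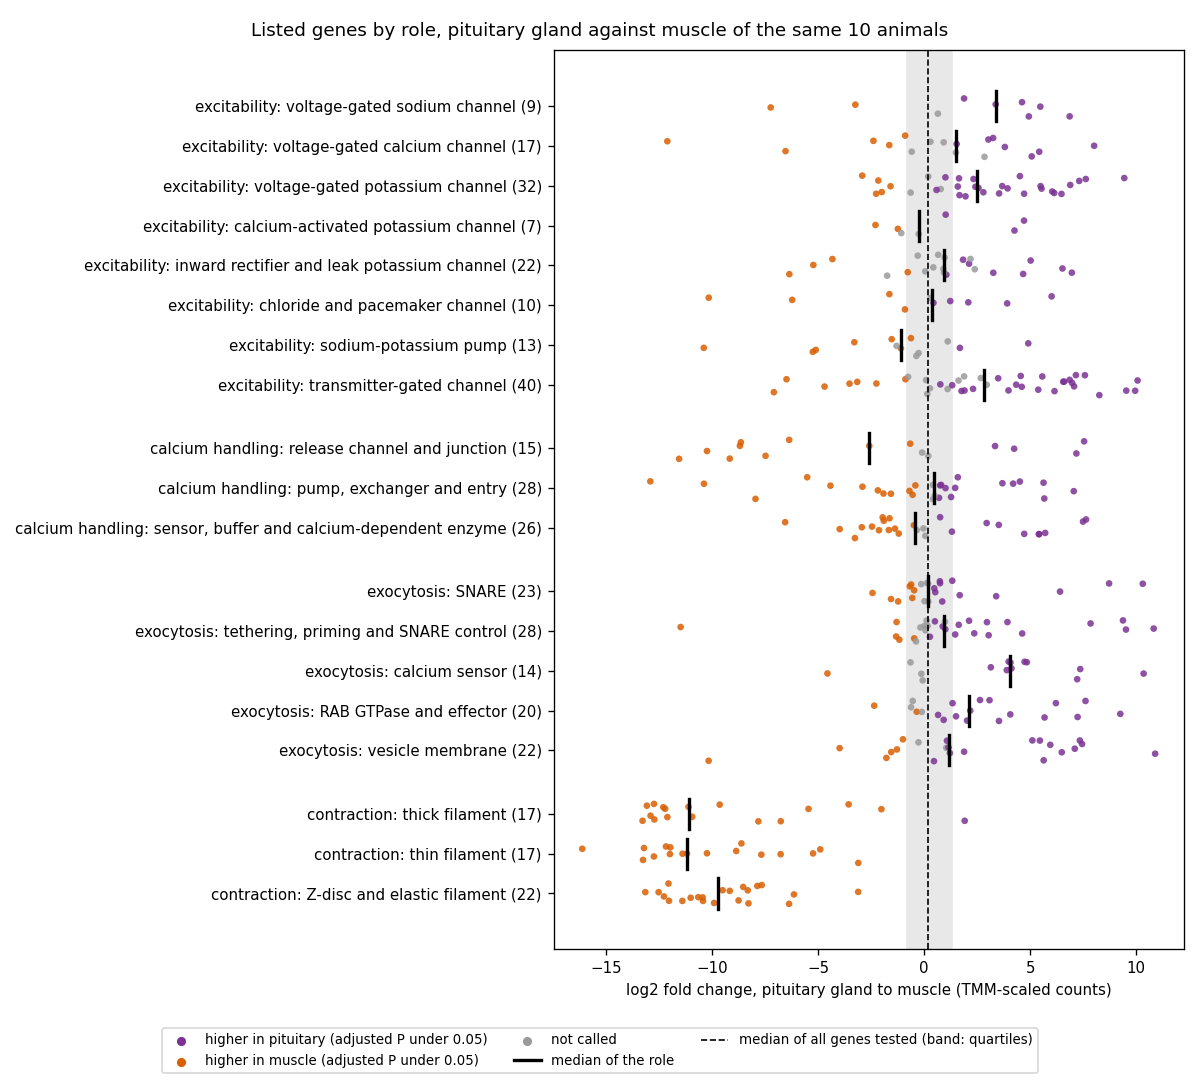
Log2 fold change of each tested list member, pituitary gland to muscle, with 1 point per gene, grouped by role. Bars are role medians, the dashed line is the median of all genes tested (0.20) and the band spans its quartiles. All contraction roles lie far to the left, with role medians from -11.18 to -9.70. Right of the band lie the medians of sodium channels (3.38), transmitter-gated channels (2.81) and genes listed as calcium sensors of exocytosis (4.03). The transmitter-gated median is 1.47 with its 9 genes without a read in one tissue at their bound.

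The summed level of a list weighs its abundant members most, and gave another order than the gene counts. Exocytosis summed to 5431, 5739 and 6236 CPM (lowest, median and highest of 10) in pituitary and to 4121, 4406 and 4696 CPM in muscle, higher in pituitary in all 10 animals. Excitability summed to 2554, 2806 and 3147 CPM in pituitary and to 4038, 5765 and 9219 CPM in muscle, higher in muscle in all 10 animals although more of its genes were higher in pituitary. Scaling by library sizes alone narrowed the excitability difference, from means of 2824 and 5890 CPM to 3776 and 4371 CPM. The largest role in the muscle sum of that list was the sodium-potassium pump, at a mean of 2153 CPM against 1060 CPM in pituitary. Abundant channel genes in muscle included SCN4B, CACNA2D1 and CHRNA1. Calcium handling summed to 4060, 4635 and 5129 CPM in pituitary and to 32941, 39282 and 59142 CPM in muscle. Contraction summed to 344, 465 and 620 CPM in pituitary and to 267167, 400806 and 714001 CPM in muscle. The highest muscle value of the excitability, calcium handling and contraction sums was each time that of cow 4, and no tissue ranges overlapped for any list.

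**Figure D2:**
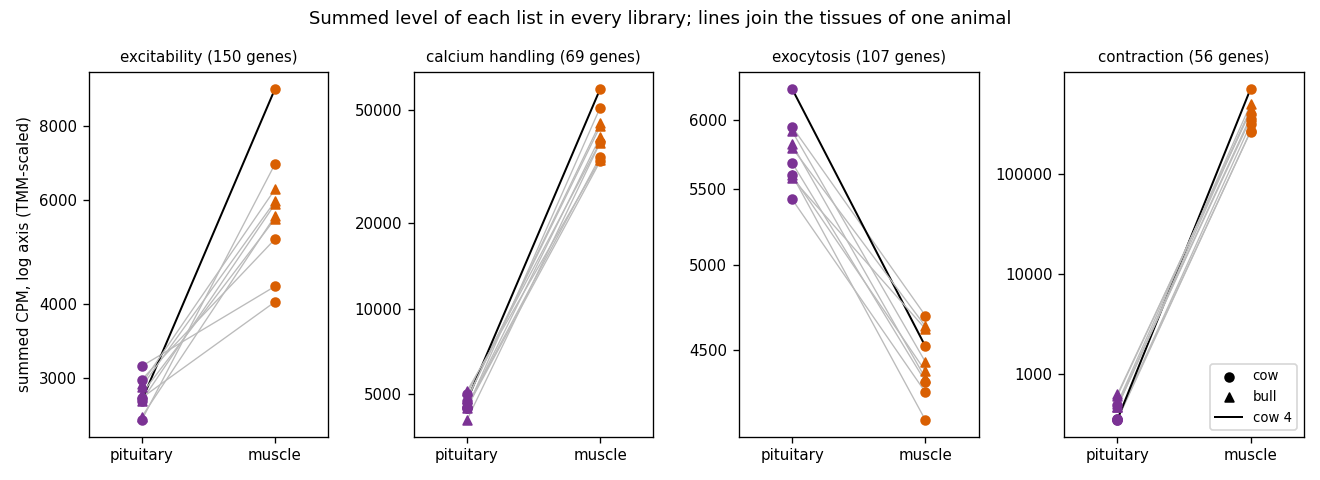
Summed TMM-scaled CPM of each list (log axis) in the 10 pituitary and 10 muscle libraries, on an axis of its own, with lines joining the 2 tissues of an animal and the black line marking cow 4. Exocytosis fell from pituitary to muscle in every animal, while the other sums rose, contraction from at most 620 CPM to at least 267167 CPM.

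Sodium channels carry the upstroke of the action potential. The pore genes SCN1A, SCN2A, SCN8A and SCN9A were past 4-fold higher in pituitary. SCN8A was at 19.8, 50.3 and 91.0 CPM in pituitary and at 0, 0.331 and 0.983 CPM in muscle, with log2FC 6.87 (SE 0.30, adjusted P = 2.71e-13). SCN9A was at 21.0, 46.3 and 100.2 CPM against 0.782, 2.16 and 3.91 CPM (log2FC 4.62, SE 0.24, adjusted P = 2.59e-11). SCN1A and SCN2A had log2FC of 5.48 and 4.94, and the tissues overlapped for none of these 4 genes.

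The beta subunits, which tune these channels, were divided. SCN4B was at 0.802, 4.13 and 8.51 CPM in pituitary and at 249.6, 652 and 1092 CPM in muscle (log2FC -7.24, SE 0.18, adjusted P = 2.05e-14). SCN3B was higher in pituitary (log2FC 3.38). The pore gene of the adult muscle fibre, SCN4A, had no row, so the pore genes that were compared are those known from nerve and endocrine cells.

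Of 17 voltage-gated calcium channel genes 7 (41.2%) were higher in pituitary and 5 (29.4%) in muscle, near the shares of all genes. The pore genes CACNA1D, an L-type channel of endocrine cells, and CACNA1B, an N-type channel, were higher in pituitary, while CACNA1A, a P/Q-type channel, was higher in muscle by less than 4-fold (log2FC -0.89, adjusted P = 0.00114) with overlapping tissues. CACNA1D was at 23.5, 47.4 and 62.3 CPM in pituitary and at 1.19, 3.25 and 5.48 CPM in muscle (log2FC 3.81, SE 0.19, adjusted P = 1.12e-11), and the tissues did not overlap. Among the beta subunits, which bring the pore to the membrane, CACNB2 and CACNB3 were higher in pituitary (log2FC 3.26 and 1.53), CACNB4 was called higher there on 3 muscle reads (ratio 10.4, 95% counting interval 3.57 to 50.6), and CACNB1, the beta subunit of the muscle channel, was higher in muscle (log2FC -1.64, SE 0.16, adjusted P = 8.71e-08). CACNG1, the gamma subunit of the muscle channel, had 3 reads over the 10 pituitary libraries and 77.8, 144.8 and 229.7 CPM in muscle, a ratio of 7113 (95% counting interval 2434 to 34490). CACNA2D1 was at 90.7, 117 and 217 CPM in pituitary and 381, 676 and 900 CPM in muscle.

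Potassium channels end the spike and set the resting potential. Of 32 voltage-gated members tested, 24 (75%) were higher in pituitary and 5 (15.6%) in muscle, beside 38.8% and 30.2% of all genes tested. KCNH6, of the ERG family known to pace firing in endocrine cells, was at 10.8, 16.4 and 21.3 CPM in pituitary and had 1 read in all muscle libraries together (ratio 1271, 95% counting interval 228 to 50216). KCNH2 of the same family had log2FC 3.68 (adjusted P = 1.19e-10).

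Inward rectifiers and leak channels were found on both sides. KCNJ2, KCNJ11 and KCNJ12 were past 4-fold higher in muscle, with log2FC of -4.32, -5.22 and -6.36. KCNJ11 is the pore of the ATP-sensitive channel. Of its listed partner subunits, ABCC8 was higher in pituitary (log2FC 1.05, adjusted P = 0.00441) with overlapping tissues, and ABCC9 had no row. The leak channels KCNK1 and KCNK2 and the G-protein-gated KCNJ3 were past 4-fold higher in pituitary (log2FC 6.97, 4.67 and 6.53). The muscle chloride channel CLCN1, which stabilises the fibre membrane, was at 0, 0.0848 and 0.167 CPM in pituitary and at 68.4, 109 and 156 CPM in muscle (log2FC -10.16, SE 0.37, adjusted P = 2.08e-15). HCN3, a pacemaker channel, was past 4-fold higher in pituitary (log2FC 6.01).

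Of 40 transmitter-gated channels 24 (60%) were higher in pituitary and 7 (17.5%) in muscle, beside 38.8% and 30.2% of all genes tested. All 5 subunits of the nicotinic receptor of the neuromuscular junction were higher in muscle. CHRNA1, its ligand-binding subunit, was at 1.34, 3.56 and 5.56 CPM in pituitary and at 72.2, 352 and 998 CPM in muscle (log2FC -6.49, SE 0.29, adjusted P = 2.87e-11). CHRNB1, CHRND and CHRNE had log2FC of -3.15, -3.52 and -4.69, and CHRNG, the fetal subunit, reached 5.35 CPM in muscle and had 1 read in pituitary (ratio 369.5, 95% counting interval 66.3 to 14595). Other nicotinic subunits were found on both sides, with CHRNA2 at no read in muscle and at least 3.82-fold above the floor, and CHRNA3 higher in muscle (log2FC -0.88, adjusted P = 8.73e-05).

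Most receptor channels for GABA and all 5 kainate receptor genes were higher in pituitary instead. GABRD was at 4.37, 12.2 and 15.3 CPM in pituitary and had no read in muscle, at least 26.1-fold above the floor there. P2RX2, an ATP-gated channel, was at 14.4, 23.1 and 54.0 CPM in pituitary with 2 reads in muscle (ratio 1112, 95% counting interval 308 to 9184). GRIK2 and GRIK5, kainate receptor subunits, had log2FC of 7.59 and 5.57. Only GABRA3, at a median of 0.5 CPM in pituitary and 2.47 CPM in muscle, was higher in muscle among the GABA receptor subunits tested.

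The sodium-potassium pump restores the gradients after firing. Of 13 genes of this role 2 (15.4%) were higher in pituitary and 7 (53.8%) in muscle. Over all genes tested these shares were 38.8% and 30.2%. The beta subunits were called in both directions. ATP1B2 was higher in pituitary (log2FC 4.91), while ATP1B1 and ATP1B4 were higher in muscle (log2FC -1.09 and -10.39). Phospholemman (FXYD1), a regulator of the pump, was also higher in muscle (log2FC -5.25).

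Calcium release and its junction divided between channel families. ITPR1, the inositol trisphosphate receptor, was at 568, 656 and 872 CPM in pituitary and at 46.0, 72.5 and 85.6 CPM in muscle (log2FC 3.35, SE 0.14, adjusted P = 2.42e-12). RYR1, the ryanodine receptor of skeletal muscle, was at 4.97, 9.59 and 103.8 CPM in pituitary and at 3631, 6716 and 15499 CPM in muscle (log2FC -9.17, SE 0.35, adjusted P = 1.98e-11). The ranges did not overlap for either gene, although the pituitary of bull 5 stood at 103.8 CPM for RYR1 while the other 9 lay between 4.97 and 15.9 CPM. ITPR2 was weakly higher in muscle (log2FC -0.66, adjusted P = 0.0117) and had a log2FC of 0.14 under scaling with library sizes alone. ITPR3 had medians of 20.4 and 17.2 CPM and was not called (log2FC 0.20, SE 0.18, adjusted P = 0.336).

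The junctophilins, which hold the reticulum against the plasma membrane, stood on opposite sides. JPH1 was at 11.8, 15.8 and 25.1 CPM in pituitary and 851, 1294 and 2065 CPM in muscle (log2FC -6.36). JPH3 was at 13.02, 15.4 and 27.8 CPM in pituitary and at 0, 0 and 0.647 CPM in muscle (log2FC 7.18), and JPH4 was at 27.4, 58.5 and 90.2 CPM against 0, 0.31 and 0.652 CPM (log2FC 7.55). All 3 adjusted P-values were 1.3e-10 or less. Calsequestrin 1 (CASQ1), the calcium store of fast fibres, was at 0.674, 1.43 and 3.20 CPM in pituitary and 3217, 4875 and 5978 CPM in muscle (log2FC -11.56, SE 0.24, adjusted P = 8.66e-15). CASQ2, HRC, JSRP1 and STAC3, further proteins of the muscle store and junction, were past 4-fold higher in muscle too. FKBP1A, which binds release channels, had medians of 170 CPM in pituitary and 184 CPM in muscle and was not called (log2FC -0.09, adjusted P = 0.602).

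Calcium pumps of the reticulum were higher in muscle except for ATP2A3. ATP2A1, the SERCA pump of fast fibres, was at 5.55, 8.04 and 17.3 CPM in pituitary and at 5430, 12605 and 21540 CPM in muscle (log2FC -10.38, SE 0.27, adjusted P = 2.14e-13). ATP2A2, present in many cells and in slow fibres, was at 141, 170 and 228 CPM in pituitary and at 1152, 4332 and 8546 CPM in muscle (log2FC -4.42). ATP2A3 was higher in pituitary by less than 4-fold (log2FC 0.71, adjusted P = 0.00727), with overlapping tissues. Sarcolipin (SLN) and phospholamban (PLN), small proteins that restrain these pumps, were both past 4-fold higher in muscle. SLN did not exceed 0.201 CPM in pituitary and lay between 330 and 1407 CPM in muscle (log2FC -12.91, SE 0.44, adjusted P = 3.98e-15).

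At the plasma membrane and in the cytoplasm the division continued. ATP2B2 and ATP2B3, calcium pumps of the plasma membrane, were higher in pituitary (log2FC 0.80 and 7.06) and ATP2B1 was higher in muscle (log2FC -1.57). ATP2B4 was called higher in muscle by a small amount (log2FC -0.41, adjusted P = 0.0411), and its log2FC was 0.40 under scaling with library sizes alone. Among the ORAI channels of store-operated entry, ORAI1 was higher in muscle (log2FC -2.91) and ORAI2 in pituitary (log2FC 4.52). The calcium-binding proteins CALB1 and CALB2 had 1 read each in muscle and medians of 3.59 and 3.40 CPM in pituitary, with ratios of 366 (95% counting interval 65.7 to 14450) and 376 (67.5 to 14845). All 4 CaM kinase II genes, which read calcium signals, were higher in muscle, CAMK2A by the most (log2FC -6.55) and CAMK2G by the least (log2FC -1.37), while CAMK1, CAMK1G and CAMKK1 were past 4-fold higher in pituitary. The calcineurin genes PPP3CA, PPP3CB and PPP3R1 were higher in muscle, with log2FC between -2.13 and -1.90.

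The SNARE proteins are the fusion machinery itself. Of 23 SNARE genes 11 (47.8%) were higher in pituitary and 7 (30.4%) in muscle, near the shares of all genes, 4 (17.4%) were past 4-fold higher in pituitary, and 19 overlapped between tissues, where over all genes tested 31.3% did not overlap. Among the 4 were SNAREs of regulated release. SNAP25 was at 207, 277 and 310.0 CPM in pituitary and at 0, 0.163 and 0.593 CPM in muscle (log2FC 10.32, SE 0.41, adjusted P = 1.09e-14). As a share of the pituitary of the same animal, SNAP25 in muscle was 0% to 0.228% with a median of 0.056%, and for PRL the median was 0.0571%. STX1A was at 35.8, 41.1 and 63.6 CPM in pituitary and at 0, 0.503 and 1.405 CPM in muscle (log2FC 6.41, SE 0.38, adjusted P = 1.87e-11). STX3 had log2FC 3.40.

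SNAREs with wider duties were found on both sides. VAMP8, a SNARE of endosomes, was at 13.1, 23.4 and 40.6 CPM in pituitary and 5.35, 8.82 and 14.4 CPM in muscle (log2FC 1.33, SE 0.20, adjusted P = 1.94e-05), with overlapping tissues. SNAP23, the relative of SNAP25 used outside nerve and gland, was at 1.59, 2.04 and 8.82 CPM in pituitary and 8.02, 11.8 and 31.2 CPM in muscle (log2FC -2.43, SE 0.23, adjusted P = 6.74e-08), and only the pituitary of cow 3 reached into the muscle range. STX4 and VAMP3 were called higher in muscle by small amounts (log2FC -0.67 and -0.56), and VAMP5 by more (log2FC -1.56, adjusted P = 2.1e-05). VAMP2, the vesicle SNARE of regulated release, was at 46.7, 64.6 and 91.4 CPM in pituitary and at 21.4, 36.3 and 59.6 CPM in muscle, and so was present in both tissues (log2FC 0.86, SE 0.14, adjusted P = 3.98e-05). VAMP1 was not called (log2FC 0.20, adjusted P = 0.506). Under scaling with library sizes alone STX4 and VAMP3 had log2FC of 0.13 and 0.24.

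**Figure D3:**
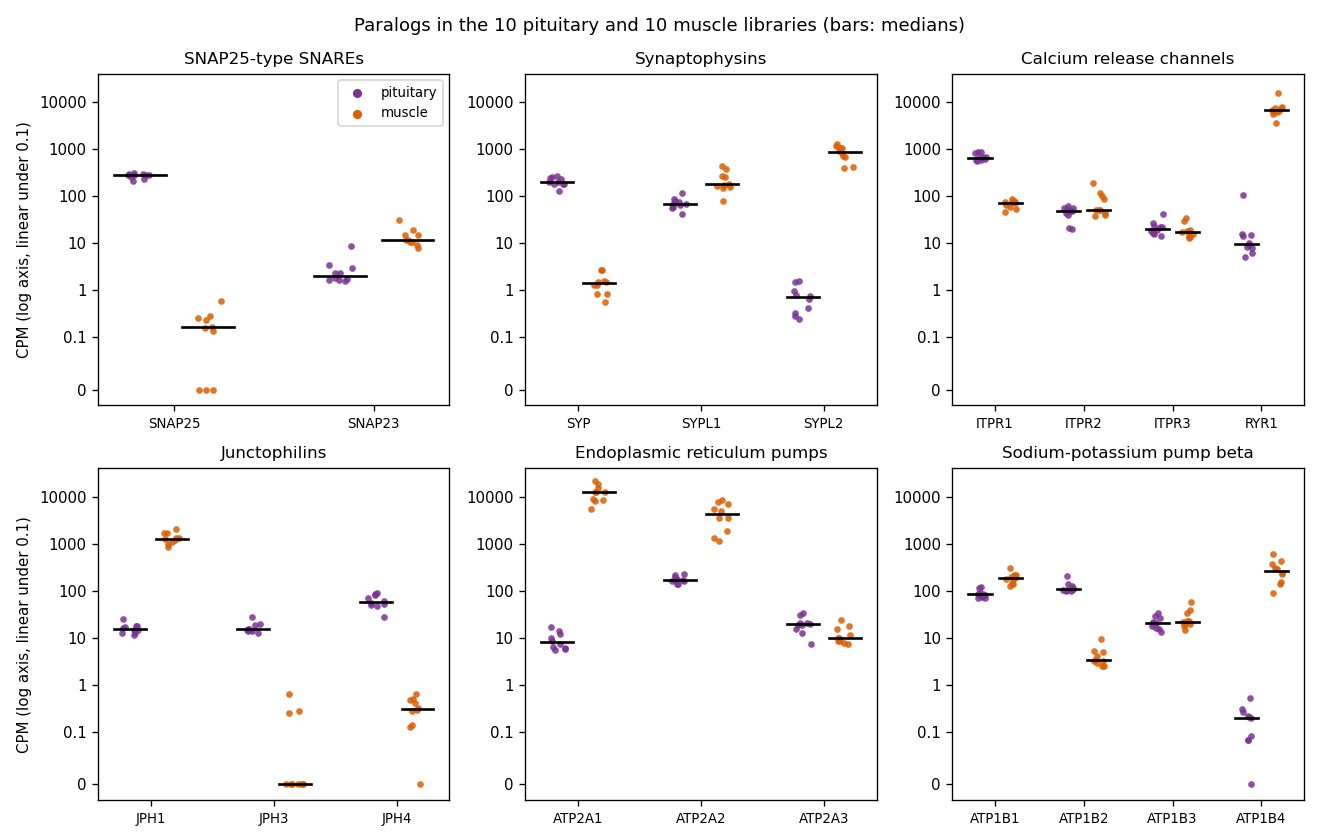
CPM (log axis with a linear stretch near 0) of related genes in the 10 pituitary and 10 muscle libraries, with 1 point per library and bars at the medians. In each panel a member called higher in pituitary stands beside a member called higher in muscle, for example SNAP25 (medians 277 and 0.163 CPM) beside SNAP23 (2.04 and 11.8 CPM).

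Several factors of docking and priming stood far higher in pituitary. CADPS, the priming factor of dense-core granules, was at 91.1, 154 and 249 CPM in pituitary and did not exceed 0.396 CPM in muscle (log2FC 9.52, SE 0.42, adjusted P = 2.4e-14). Complexin 2 (CPLX2), a clamp on the assembled SNAREs, was at 12.9, 21.8 and 26.6 CPM in pituitary and had no read in muscle, at least 47.8-fold above the floor. STXBP5L (tomosyn 2), a brake on SNARE assembly, was at 11.5, 24.9 and 39.3 CPM against 0.809, 3.49 and 10.7 CPM (log2FC 2.96, SE 0.24, adjusted P = 8.33e-09). In the exocyst, a tether used in all cells, EXOC5 was higher in muscle (log2FC -1.30, adjusted P = 4.09e-07) without overlap.

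The calcium sensor role held 14 tested genes, synaptotagmins and others, and whether each binds calcium was not examined. Of these, 10 (71.4%) were higher in pituitary, all of them past 4-fold, and 1 (7.14%) was higher in muscle. Over all genes tested the called shares were 38.8% and 30.2%, and 12.1% were past 4-fold higher in pituitary. SYT1, the classical trigger of fast release, was at 4.94, 14.7 and 32.4 CPM in pituitary and 0.119, 0.963 and 2.26 CPM in muscle (log2FC 4.07, SE 0.37, adjusted P = 2.76e-08). SYT4 was at 128, 224 and 305 CPM in pituitary and at 5.16, 26.5 and 72.0 CPM in muscle (log2FC 3.15, SE 0.28, adjusted P = 5.55e-08). In muscle SYT4 stood at 2.29% to 32.8% of the pituitary level of the same animal. SYT13 reached 0.198 CPM in muscle against 68.4, 104 and 121 CPM in pituitary (log2FC 10.36). The one gene of this role higher in muscle was dysferlin (DYSF), known for resealing the fibre membrane. DYSF was at 10.9, 14.9 and 19.5 CPM in pituitary and 213, 340 and 498 CPM in muscle (log2FC -4.56, SE 0.15, adjusted P = 1.94e-13).

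RAB proteins bring granules to the membrane. Of 20 RAB genes and effectors 15 (75%) were higher in pituitary and 2 (10%) in muscle, beside 38.8% and 30.2% of all genes tested. RAB3A was at 45.6, 56.5 and 76.7 CPM in pituitary and at 3.76, 7.12 and 12.5 CPM in muscle (log2FC 3.09, SE 0.18, adjusted P = 8.45e-11), RAB3C had log2FC 7.24, and RAB27A, a RAB of secretory granules, had log2FC 4.07. RIMS2, a scaffold of release sites, had log2FC 9.26. Of 22 vesicle membrane genes 14 (63.6%) were higher in pituitary and 6 (27.3%) in muscle. Their summed level was higher in pituitary in only 3 of the 10 animals. PTPRN (IA-2), a protein of dense-core granules, was at 432, 684 and 1292 CPM in pituitary and at most 0.836 CPM in muscle (log2FC 10.90, SE 0.31, adjusted P = 3.31e-15). Synaptophysin (SYP) was higher in pituitary (log2FC 7.11), and its relative SYPL2 (mitsugumin 29), a membrane protein of the muscle triad, was at 0.247, 0.714 and 1.53 CPM in pituitary and at 393, 855 and 1269 CPM in muscle (log2FC -10.16, SE 0.23, adjusted P = 4.06e-15). TXLNB, a syntaxin-binding taxilin listed under exocytosis, was higher in muscle by a similar amount (log2FC -11.49).

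Of 18 families with at least 2 measured members, 11 had a member called in each direction. They included the SNAP25-type SNAREs, plasma membrane syntaxins, synaptobrevins, synaptophysins, calcium channel beta subunits, SERCA pumps, plasma membrane calcium pumps, inositol trisphosphate receptors, junctophilins and the beta subunits of the sodium-potassium pump. The number was 10 under scaling with library sizes alone and 9 in cows only, and 11 with every single animal left out. The families were listed for having known tissue forms, so this count describes the list.

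The contraction genes gave the largest differences of the 4 lists. ACTA1, the actin of the skeletal thin filament, was at 1.38, 5.92 and 24.2 CPM in pituitary and at 39414, 61204 and 98965 CPM in muscle (log2FC -13.21, SE 0.39, adjusted P = 3.13e-12). TNNC2, the calcium switch of fast fibres, was at 0.152, 0.596 and 2.82 CPM against 3546, 8889 and 14021 CPM (log2FC -13.26, SE 0.38, adjusted P = 5.05e-13). TNNI2, its inhibitory partner, had no pituitary read, and its muscle mean was at least 4004-fold above the floor in pituitary. MYL2, TNNT3, MYOT and MYBPC1 had log2FC of -13.28, -12.18, -13.15 and -13.08. All 17 thin filament genes and all 22 genes of the Z-disc and elastic filament were past 4-fold higher in muscle.

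Some contraction genes were less one-sided. PDLIM7, a Z-disc adaptor also used elsewhere, was at 39.98, 63.3 and 81.2 CPM in pituitary and 321, 484 and 823 CPM in muscle (log2FC -3.11), and TMOD1, which caps actin filaments, had a pituitary median of 23.5 CPM (log2FC -5.24). Of the alpha-actinins, the listed ACTN2 and ACTN3 were past 4-fold higher in muscle. ACTN1 and ACTN4, the alpha-actinins of non-muscle cells, were measured as family members and are not on the contraction list. They were not called (log2FC -0.22 and -0.25, adjusted P = 0.154 and 0.156). Under scaling with library sizes alone ACTN1 and ACTN4 were called higher in pituitary (log2FC 0.58 and 0.56). The single contraction gene called higher in pituitary was MYBPC3, the cardiac form of myosin-binding protein C, at 0.584, 0.972 and 2.48 CPM in pituitary and 0, 0.245 and 1.28 CPM in muscle (log2FC 1.92, SE 0.50, adjusted P = 0.00195). It was not called in bulls only, and it fell outside the naming rule and was named after its values were seen. In the pituitary libraries desmin (DES) reached 102 CPM in bull 1, where the 5 vascular smooth muscle markers also summed highest, at 664.8 CPM against 48.0 CPM in cow 4, which had the lowest DES at 4.89 CPM. The part of vessels in these levels was not tested.

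The level of called genes in the lower tissue was compared with that of PRL in muscle and of ACTA1 in pituitary. Of the 39 exocytosis genes past 4-fold higher in pituitary, 5 had a muscle mean at or below the PRL share of 0.0516%, and the median share was 1.32%. For excitability these were 7 of 53 genes with a median of 2.0%, and for calcium handling 0 of 18 with a median of 2.17%. Among the 54 contraction genes past 4-fold higher in muscle, 7 lay at or below the ACTA1 share of 0.0153%, and the median share was 0.0512%. MYH1 in the pituitary of bull 5 was 8.06 CPM, or 1.52% of the muscle level of that animal, where the other 9 animals lay between 0% and 0.168%. The muscle level that divides this share was 360 to 1149 CPM in bulls and 9726 to 29255 CPM in cows. In pituitary itself the highest cow stood at 4.60 CPM, so the shares are not comparable between the sexes.

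Both tissues were also set against the mean of liver and fat, which a gene can exceed while lying below one of them. In separate contrasts of 1 fit on all 40 libraries, 35.9% of 13148 genes were higher and 30.1% lower in pituitary than in that mean, and for muscle these were 31.7% and 30.4%. Both comparisons use the same liver and fat libraries, so their values are set side by side only. Higher in both were 14.8% of all genes. Of 150 excitability genes 100 were higher in pituitary and 55 in muscle, and 44 in both (29.3%). Of 69 calcium handling genes 41 and 36 were higher, and 19 in both (27.5%). Of 107 exocytosis genes 71 and 40 were higher, with 27 in both (25.2%), and of 56 contraction genes 11 and 55, with 10 in both (17.9%). The liver library labelled bull 3 went against its label, with 8694 XIST reads and 0 DDX3Y reads, and it was kept. Without it, 4683 genes were higher and 3945 lower in pituitary, and 4140 higher and 3998 lower in muscle. All 20 pituitary and muscle libraries matched their labelled sex by these genes.

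Among the 5 genes with the largest smaller fold were CAMK2B, SYT1 and GRIA3. CAMK2B, a CaM kinase II of nerve and muscle, was at 52.9, 58.1 and 89.5 CPM in pituitary, 160, 218 and 297 CPM in muscle, and at most 1.02 CPM in liver and 0.58 CPM in fat. Its log2FC against liver and fat was 7.69 in pituitary (adjusted P = 1.11e-24) and 9.44 in muscle (adjusted P = 6.75e-27). GRIA3, a subunit of the AMPA glutamate receptor, was at 13.6, 25.6 and 37.6 CPM in pituitary and at 10.8, 23.3 and 49.7 CPM in muscle, with 0, 0.139 and 0.624 CPM in liver and 1.24, 3.24 and 10.6 CPM in fat. It was not called between pituitary and muscle (log2FC 0.15, SE 0.20, adjusted P = 0.535). SYT1 in muscle had a median of 0.997 CPM on this scale and did not exceed 0.0841 CPM in liver or fat.

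**Figure D4:**
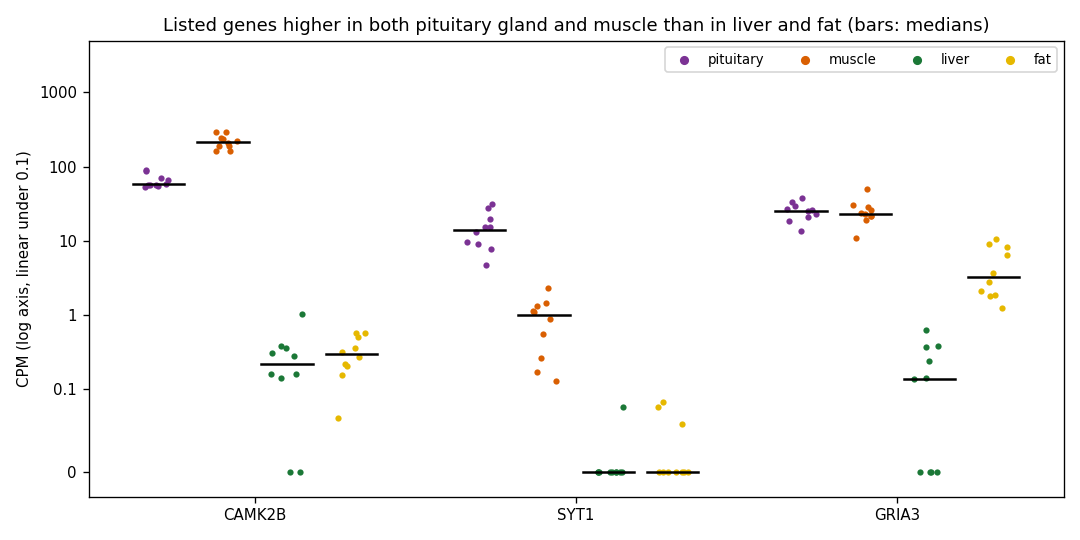
CPM (log axis with a linear stretch near 0, TMM factors of all 40 libraries, which differ slightly from those of the 20) of 3 listed genes among those with the largest smaller fold over liver and fat, with 1 point per library and bars at the medians. For all 3 the pituitary and muscle medians lie above those of liver and fat, and GRIA3 has nearly equal medians of 25.6 and 23.3 CPM in pituitary and muscle.

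Cows and bulls were compared for the size of the tissue difference. No gene passed the test of sex by tissue (0% of 12952, smallest adjusted P = 0.0568, edgeR quasi-likelihood), although 1501 genes had an unadjusted P below 0.05. The likelihood ratio test called 202 genes and DESeq2 190. The count depended on the test and on the animals. With 1 animal left out the quasi-likelihood test called 0 to 3 genes, except without cow 4, where it called 156, 7 of them from the lists, namely CHRNA1, MCU, STXBP2, EXOC6, SYN1, MYL6B and TNNT3. The 3 genes with the smallest P were ME2, COL18A1 and CRIP2, which are no list members. EXOC6, an exocyst subunit, was the closest list member (adjusted P = 0.0568), with 20.6, 26.6 and 61.8 CPM in the muscle of cows and 62.5, 74.3 and 137 CPM in the muscle of bulls. Its pituitary medians were 45.9 CPM in cows and 40.7 CPM in bulls.

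Fibre-type genes were among the listed genes with a low unadjusted P. MYH1, the heavy chain of a fast fibre type, was at 9726, 21506 and 29255 CPM in the muscle of cows and at 360.0, 460 and 1149 CPM in the muscle of bulls, without overlap. The difference in its tissue log2FC, bulls minus cows, was 4.07 (SE 0.88, adjusted P = 0.146). That term rests on the pituitary levels as well, and muscle alone was not tested here for sex. In the authors' own test of muscle alone, MYH1 differed significantly between the sexes. Reads that fit several neighbouring myosin genes were not counted, so the levels of MYH1, MYH2 and MYH7 may be too low, and this could differ between animals. MYL6B was at 71.9, 167 and 1927 CPM in the muscle of cows and 718, 2568 and 4947 CPM in bulls, and the highest cow was cow 4. CHRNA1 was at 72.2, 104 and 998 CPM in cows and 304, 425 and 630 CPM in bulls, and again cow 4 was the highest. The adjusted P-values of MYL6B and CHRNA1 were 0.169 and 0.22 with cow 4 and 0.00989 and 0.0171 without.

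**Figure D5:**
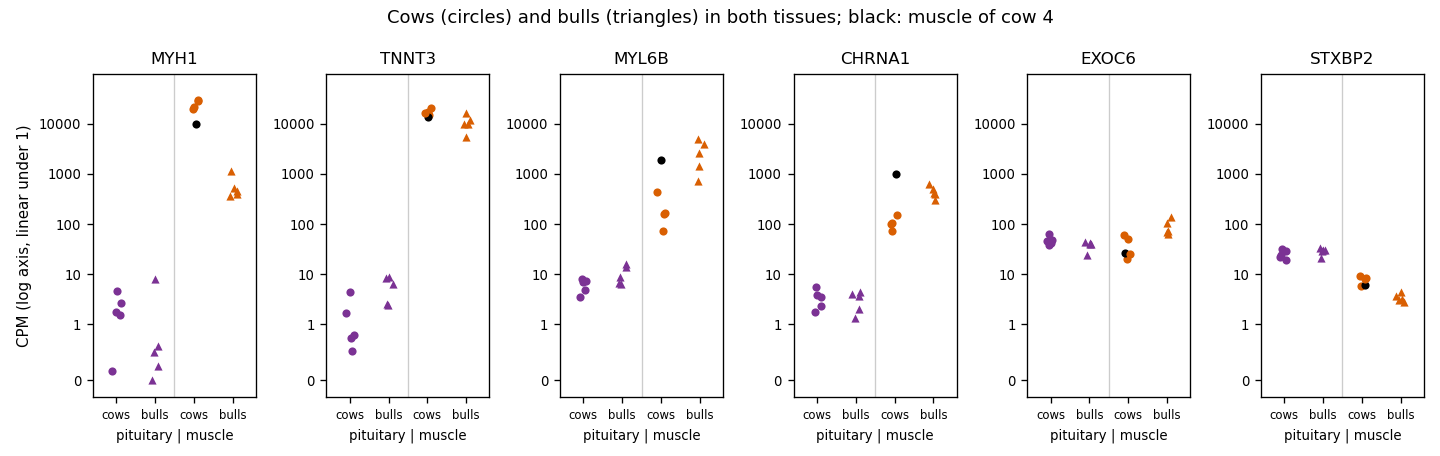
CPM (log axis with a linear stretch near 0) of 6 listed genes in pituitary (left of the line) and muscle (right), with circles for cows, triangles for bulls and the muscle of cow 4 in black. MYH1 in muscle separates cows (at least 9726 CPM) from bulls (at most 1149 CPM), and cow 4 lies above the other cows for MYL6B and CHRNA1.

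Over all genes, the fitted fold past 4-fold toward pituitary named SPINT1, SULT4A1, CELSR3, CHGA and SIX6, which the reads do not rank, since some had few or no reads in muscle. CHGA (chromogranin A), a cargo protein of hormone granules, was at 1506, 1911 and 2274 CPM in pituitary and at 0, 0.627 and 1.25 CPM in muscle (log2FC 11.42, SE 0.30, adjusted P = 1.08e-14). SPINT1 and SULT4A1 had no muscle read and were at least 81.1-fold and at least 78.7-fold above the floor. CELSR3 had 1 muscle read (ratio 4913, 95% counting interval 881.8 to 194054). Toward muscle the fitted fold named TNNI2, COX6A2, MYL2, TNNC2 and ACTA1, so that 4 of the 5 were contraction genes. COX6A2, the muscle form of a cytochrome oxidase subunit, had 1 read in pituitary (ratio 28246, 95% counting interval 5070 to 1115643).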

How the data were processed

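Total RNA of 4 tissues from 10 cattle was sequenced as paired-end poly-A libraries. The deposited values were raw read counts per gene, which the authors made with Trimmomatic, TopHat2 with Bowtie2, SAMtools and HTSeq on the bosTau7 assembly. The strand and overlap settings of the counting are not given in the sources used here. Only uniquely aligned reads were counted, so near-identical copies such as neighbouring myosin heavy chains or the striated muscle actins are uncertain, as are overlapping and antisense genes. Of 13570 gene rows, 12952 had at least 1 read in the 20 pituitary and muscle libraries and were tested. Unassigned reads and a row without a gene name, 0.082% to 0.0975% of assigned and unassigned reads in pituitary and 0.208% to 1.58% in muscle, were left out.

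Counts were fitted in R 4.3.3 with edgeR 4.0.16 (TMM factors, quasi-likelihood test, glmTreat against a fold of 4), with animal and tissue as terms, and P-values were adjusted by the Benjamini-Hochberg method over all genes tested. The pairing came from the ear tags in the labels. Deviations of the 2 tissues of an animal correlated at 0.0744 to 0.529 with a median of 0.223 over 10646 genes. The animal's own pair correlated best for 5 animals and not for the others, so these correlations do not settle the pairing. Pituitary and muscle were each set against the mean of liver and fat in a fit of all 40 libraries, and the sex by tissue term was tested in the 20. Alternatives were no animal block, the likelihood ratio test, DESeq2 1.42.0, RLE factors, library sizes alone, filterByExpr, each animal left out, and each sex alone. Counting intervals are exact at 95%, and they and the floor of 3 reads cover counting error only.

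Gene lists were drawn by textbook role, and the comparison, lists and members were chosen with earlier results of these data known. Named were, per list and direction, the 5 genes past 4-fold with the largest fold and at least 1 CPM in the higher tissue, every measured member of 20 families, the 5 largest over all genes, the 5 members highest in both tissues over liver and fat, and the genes closest to a sex by tissue call. Some genes under this rule are not reported here. Other members were named after their values were seen. Promoter motifs were not analysed here.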

Additional observations from a re-analysis of the deposited data

Results flagged for a closer look

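Each named gene reported here and each list sum was examined within each tissue for 1 library far from the other 9 by Dixon's ratio at its 95% critical value. Of 155 groups tested 24 passed. The critical value holds for normally distributed values, while the ratio was taken on untransformed CPM. The number of groups that chance would flag is therefore not known. Values are CPM and no explanation was tested.

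Cow 4 had the most such values in muscle. Its RYR1 was 15499, ITPR2 193.6 and ACTN2 18004 CPM, and its summed contraction list was 714001 CPM, each the highest of 10. In its pituitary, PTPRN was 1292 CPM.

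In pituitary, cow 3 was highest for CALB1 (16.5 CPM), SNAP23 (8.818 CPM) and ATP1B2 (202.4 CPM). Bull 5 was highest for RYR1 (103.8 CPM) and ITPR3 (42.44 CPM). Bull 1 was highest for JPH3 (27.8 CPM), PLN (11.85 CPM) and ACTN4 (400.2 CPM). Bull 2 stood apart for ATP2B3 at 49.65 CPM and cow 5 for JPH1 at 25.13 CPM.

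In muscle, cow 1 was highest for SNAP23 (31.19 CPM) and ATP1B2 (9.553 CPM). Cow 2 was highest for SV2B (11.31 CPM) and ATP2B4 (69.73 CPM), and cow 3 for VAMP1 (44.48 CPM). Bull 4 was lowest for TNNC2 (3546 CPM) and highest for PLN (2515 CPM), bull 2 was highest for GRIA3 (46.79 CPM), and bull 3 for COX6A2 (581.3 CPM).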

How the results depend on the processing

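Of 406 counts and levels recomputed under the alternatives, 384 stayed within 1.5 times or 1 SD and 22 moved. Scaling by library sizes alone gave 7664 genes higher in pituitary and 2028 higher in muscle, 2475 and 638 past 4-fold, and 12 exocytosis genes higher in muscle. It moved the mean list sums to 3776 (pituitary) and 4371 CPM (muscle) for excitability, 6171 and 31073 for calcium handling, 7648 and 3387 for exocytosis, and 598 in pituitary for contraction. It reversed STX4 (0.13), VAMP3 (0.24), ATP2B4 (0.40), ITPR2 (0.14), ATP1B3 (0.54), ACTN1 (0.58) and ACTN4 (0.56) on the log2 scale, and cows alone reversed COL18A1 (-0.64) and CRIP2 (-0.63). No contraction gene was called higher in pituitary with filterByExpr (0) or in bulls alone (0). With an animal left out, 4651 to 4985 genes were higher in pituitary and 3741 to 4077 in muscle. Sex by tissue gave 202 genes by the likelihood ratio test, 190 by DESeq2, and 0 to 156 with an animal left out, the 156 without cow 4. Without the replicate block it gave 1 gene, and the tissue comparison 4892 and 3953. Of 100 named genes, only ATP2B4 lost its call without the block (adjusted P = 0.0785). The cause of these changes was not tested. Differences below the floor of 0.14 to 0.771 CPM were not detectable at this depth, and promoter motifs were not run for lack of a sequence table.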
